A study of Mus musculus with 11 samples.

Results

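Ccr2, Ccr3, Cxcr3 and Cxcr6 are chemokine receptor genes whose products lead leukocytes to inflamed tissue, and this is an account of their transcripts in 3 sorted populations of mouse spleen CD4+ T cells. The genes were chosen by name, with earlier results of these data known. Each was taken as the probe set whose identifier carries a RefSeq transcript of the gene, which gave 1 probe set for each of the 4 genes, out of 908 named genes and 1246 probe sets on a custom chip for glycosylation genes and heavily glycosylated proteins. The cells came from female C57BL/6 mice, with no engineered allele and no treatment named. Treg cells were sorted as CD4+ CD25+ CD45RBlow (n = 3 arrays, replicates 1, 2 and 4), a gate that can also take in recently activated cells. The other populations were CD4+ CD25- CD45RBlow, labelled activated or memory (n = 4), and CD4+ CD25- CD45RBhigh, labelled naive (n = 4). An age of 4 to 6 weeks is given for the CD25- populations, none for Treg cells, so age and population cannot be told apart in comparisons with Treg cells.

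Values are log2 expression after Robust Multichip Average (RMA), so a difference of 1 is a doubling. The whole range on the 11 arrays was 1.99 to 14.2, and array medians lay between 4.85 and 4.94. Precision is limited by the small number of arrays, and no label states that replicates were separate animals, so p-values measure the spread between these samples. A level is the mean over all cells of a sort, in which fewer cells with a transcript and less transcript per cell cannot be told apart. Il2ra, the gene of CD25, stood at 9.84 ± 0.17 (SD, n = 3) in Treg, 6.17 ± 0.36 (SD, n = 4) in CD45RBlow and 4.07 ± 0.27 (SD, n = 4) in CD45RBhigh arrays. It was thus highest in the CD25+ sort, and among the CD25- sorts it was 4.28-fold higher in CD45RBlow than in CD45RBhigh cells (limma adjusted p = 1.28e-05). Cd44, an adhesion receptor of activated and memory cells, was higher in CD45RBlow than in CD45RBhigh cells by 1.50 (limma adjusted p = 0.0083). None of the 6 markers fixed for CD4 T cells as such (0 measured) was among the named probe sets, so that label was not checked. Of 5 markers fixed for the Treg sort 1 was measured, Il2ra, so the Treg label was checked only by the gene of its own gate, and Foxp3 was not measured.

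Chemokine receptors are membrane proteins that couple to G proteins and steer a cell up a gradient of a small secreted protein, the chemokine. Naive T cells carry CCR7 and circulate through lymphoid organs, while cells that have met antigen gain receptors for tissues. CCR2 binds CCL2 and related chemokines and is best known for bringing monocytes to inflamed sites, and it is also found on memory T cells. CCR3 binds the eotaxins and is the main receptor of eosinophils. CXCR3 binds CXCL9, CXCL10 and CXCL11, which interferon-gamma induces, and marks type 1 helper cells and a subset of regulatory cells. CXCR6 binds CXCL16 and is found on effector and tissue-resident T cells and on natural killer T cells.

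The genes of 3 of the 4 receptors lie in one cluster on mouse chromosome 9, where the stretch described here holds 7 receptor genes, in RefSeq's order Ccr9, Cxcr6, Xcr1, Ccr1, Ccr1l1, Ccr3 and Ccr2. Fyco1, whose span holds Cxcr6, is the 1 other protein-coding gene listed among them. Cxcr3 lies apart from these, on chromosome X. The 250 bases upstream of the start of Cxcr3, Cxcr6 and Ccr3 are shown because Treg cells stood near the CD45RBhigh level for Cxcr6, between the CD25- populations for Cxcr3 and above both for Ccr3, as given further on. They are from RefSeq (GRCm38.p6) and read 5′ to 3′ on the gene's strand, which is the plus strand for Cxcr6 (chr9:123806227-123806476) and Ccr3 (chr9:124021721-124021970) and the minus strand for Cxcr3 (chrX:101734148-101734397). Capitals mark matches to 4 short motifs searched on both strands: TCACAC for T-box factors, AGATAA for GATA factors, TGAGTCA for AP-1 and TTCNNNGAA for STAT factors.
Cxcr3: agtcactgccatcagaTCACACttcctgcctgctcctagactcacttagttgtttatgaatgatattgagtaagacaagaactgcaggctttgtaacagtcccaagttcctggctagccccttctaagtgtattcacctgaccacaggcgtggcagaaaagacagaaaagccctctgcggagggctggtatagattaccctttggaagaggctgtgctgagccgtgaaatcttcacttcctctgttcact
Cxcr6: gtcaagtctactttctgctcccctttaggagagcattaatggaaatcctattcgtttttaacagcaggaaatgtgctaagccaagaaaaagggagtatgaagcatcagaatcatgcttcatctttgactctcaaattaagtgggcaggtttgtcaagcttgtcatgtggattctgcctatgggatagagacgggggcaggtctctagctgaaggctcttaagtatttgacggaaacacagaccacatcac
Ccr3: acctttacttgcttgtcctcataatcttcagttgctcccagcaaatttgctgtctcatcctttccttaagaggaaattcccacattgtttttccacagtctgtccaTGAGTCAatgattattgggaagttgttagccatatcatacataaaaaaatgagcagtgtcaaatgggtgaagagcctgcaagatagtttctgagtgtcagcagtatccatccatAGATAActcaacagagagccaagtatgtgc
The Cxcr3 window held TCACAC with its first base 234 bases before the start. In the Ccr3 window TGAGTCA began 144 bases and AGATAA 30 bases before the start, and these matches do not overlap. The Cxcr6 window held none of the 4 motifs in these letters, and that of Ccr2 held AGATAA on the other strand, 97 bases before the start. Among 32851 mouse windows of the same length, 12.3% held TCACAC, 9.99% AGATAA, 4.46% TGAGTCA and 7.02% TTCNNNGAA. A match is a description of the letters and not a measured binding site.

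All 4 receptor transcripts had their lowest mean in CD45RBhigh cells, and they differed in where Treg cells stood against CD25- CD45RBlow cells. Cxcr6 was far higher in CD25- CD45RBlow cells than in both other populations. Cxcr3 fell into 3 separate steps with Treg cells in the middle, Ccr2 was high in both CD45RBlow populations, and Ccr3, a dim probe set, was highest in Treg cells.

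**Figure D1:**
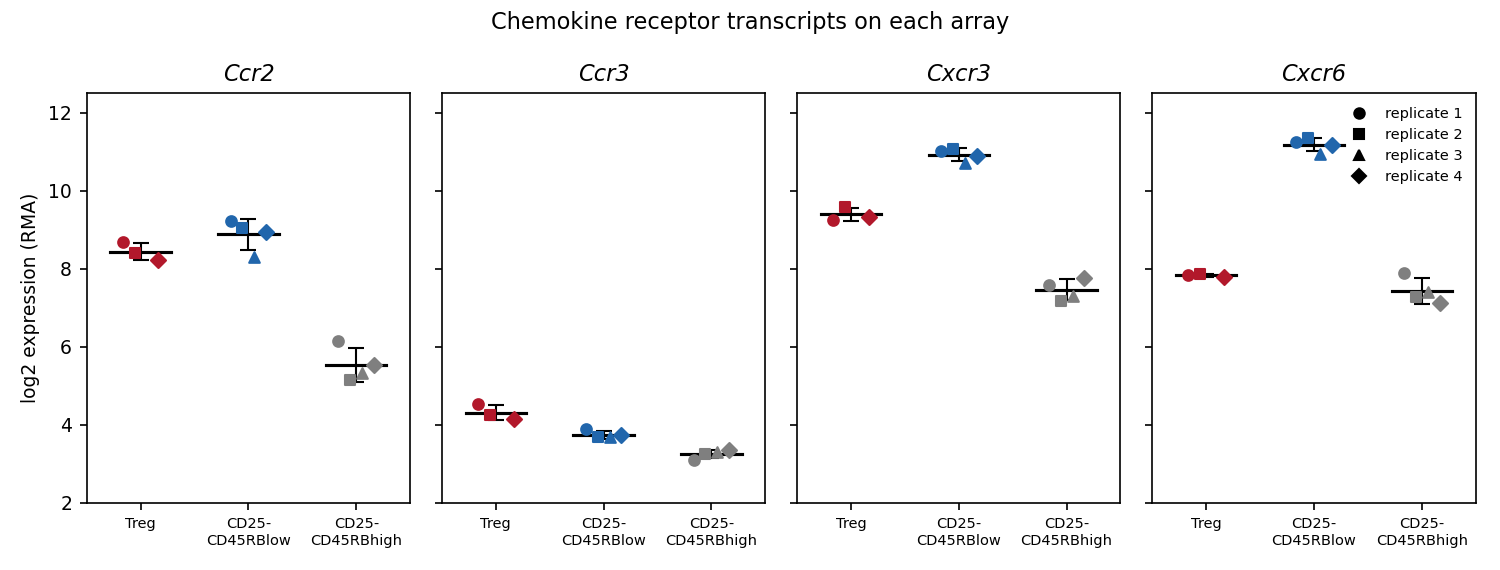
Log2 expression (RMA) of Ccr2, Ccr3, Cxcr3 and Cxcr6 on each of the 11 arrays, with marker shape for the replicate number, bars for the group mean and whiskers for 1 SD. The 4 CD45RBlow arrays of Cxcr6 sit between 10.95 and 11.37, while all other arrays lie at 7.90 or below.

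Cxcr6, the receptor for CXCL16, read 11.26, 11.37, 10.95 and 11.18 on the CD25- CD45RBlow arrays of replicates 1 to 4. The Treg arrays read 7.86, 7.86 and 7.79 for replicates 1, 2 and 4, and the CD45RBhigh arrays 7.90, 7.27, 7.41 and 7.13. No CD45RBlow array came near the others, whereas the Treg arrays lay inside the range of the CD45RBhigh arrays. The group means were 11.19 ± 0.18 (SD, n = 4) in CD45RBlow, 7.83 ± 0.04 (SD, n = 3) in Treg and 7.43 ± 0.33 (SD, n = 4) in CD45RBhigh cells. The Treg and CD45RBhigh means stood at percentiles 78.3 and 75.2 of the probe sets of their populations, so the signal there was lower but not dim. Against CD45RBhigh cells, CD45RBlow cells had 13.6-fold more Cxcr6 transcript (log2 difference 3.76, SE 0.15, limma adjusted p = 2.89e-08). By size this was rank 1 of the 1246 differences in that comparison. Treg cells had 10.2-fold less than CD45RBlow cells (log2 difference -3.36, SE 0.16, limma adjusted p = 1.12e-07), rank 3 by size. Between Treg and CD45RBhigh cells the difference was 0.41 (95% interval 0.06 to 0.76, limma adjusted p = 0.113), which did not pass the threshold of 0.05. Without CD45RBhigh replicate 1, the highest of its group at 7.90, the difference was 0.56 and passed (limma adjusted p = 0.00486). In the other 21 of 22 alternative settings it did not pass. Between arrays of one replicate number (3 pairs), Treg minus CD45RBhigh was between -0.04 and 0.66.

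Cxcr3, the receptor for the interferon-induced chemokines, also peaked in CD25- CD45RBlow cells, with 11.02, 11.09, 10.73 and 10.89 for replicates 1 to 4. Treg arrays read 9.26, 9.60 and 9.33, and CD45RBhigh arrays 7.59, 7.19, 7.30 and 7.77. The 3 groups were fully separate, with every Treg array between the other groups. Means were 10.93 ± 0.16 (SD, n = 4) in CD45RBlow, 9.40 ± 0.18 (SD, n = 3) in Treg and 7.46 ± 0.27 (SD, n = 4) in CD45RBhigh cells. CD45RBlow cells exceeded CD45RBhigh cells 11.1-fold (log2 difference 3.47, SE 0.13, limma adjusted p = 2.89e-08), rank 2 of 1246 by size, next after Cxcr6. Treg cells exceeded CD45RBhigh cells 3.82-fold (log2 difference 1.93, SE 0.15, limma adjusted p = 2.07e-06) and were 2.90-fold lower than CD45RBlow cells (log2 difference -1.54, SE 0.15, limma adjusted p = 2.77e-05). Each Cxcr3 step was thus larger than the spread between replicates, in contrast to Cxcr6, where the lower step did not pass.

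Ccr2, the receptor for CCL2, was high in both CD45RBlow populations. Its values were 9.24, 9.05, 8.31 and 8.96 on CD25- CD45RBlow arrays of replicates 1 to 4, and 8.68, 8.41 and 8.23 on the Treg arrays of replicates 1, 2 and 4. CD45RBhigh arrays read 6.15, 5.15, 5.33 and 5.54. The first 2 groups overlapped, since CD45RBlow replicate 3 lay within the Treg range, and both stood clear of the CD45RBhigh arrays. Means were 8.89 ± 0.40 (SD, n = 4) in CD45RBlow, 8.44 ± 0.22 (SD, n = 3) in Treg and 5.54 ± 0.44 (SD, n = 4) in CD45RBhigh cells. Ccr2 was 10.2-fold higher in CD45RBlow than in CD45RBhigh cells (log2 difference 3.35, SE 0.23, limma adjusted p = 4.58e-06), rank 3 of 1246 by size. It was 7.46-fold higher in Treg than in CD45RBhigh cells (log2 difference 2.90, SE 0.25, limma adjusted p = 7.16e-06), rank 15. The difference between Treg and CD45RBlow cells was -0.45 (95% interval -1.01 to 0.11, limma adjusted p = 0.345) and did not pass. With the replicate number as a block, which compares arrays of one number with each other, it was -0.58 and passed (limma adjusted p = 0.0184). In the 3 pairs of one number, the Treg array minus the CD45RBlow array was between -0.72 and -0.56.

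Ccr3, the eotaxin receptor, was dim on all arrays and had the smallest spread of means. Treg arrays read 4.54, 4.24 and 4.16, CD25- CD45RBlow arrays 3.89, 3.68, 3.68 and 3.73, and CD45RBhigh arrays 3.10, 3.25, 3.30 and 3.35. Each Treg array was above each CD45RBlow array, and each of these above each CD45RBhigh array. Means were 4.31 ± 0.20 (SD, n = 3), 3.74 ± 0.10 (SD, n = 4) and 3.25 ± 0.11 (SD, n = 4) in that order. The CD45RBhigh mean was under the first quartile of all values on the chip, 3.64, where differences in transcript are compressed, so folds against it may be lower bounds. Treg cells exceeded CD45RBhigh cells 2.09-fold (log2 difference 1.07, SE 0.10, limma adjusted p = 1.11e-05) and CD45RBlow cells 1.48-fold (log2 difference 0.57, SE 0.10, limma adjusted p = 0.00244). CD45RBlow exceeded CD45RBhigh cells 1.41-fold (log2 difference 0.50, SE 0.09, limma adjusted p = 0.00365). The smaller of these Ccr3 differences did not pass when only replicates 3 and 4 were fitted, with 1 Treg array: Treg against CD45RBlow then gave 0.46 (limma adjusted p = 0.0829) and CD45RBlow against CD45RBhigh 0.38 (limma adjusted p = 0.0783). They also missed the threshold in a test against a minimum fold of 1.2, at limma adjusted p = 0.0789 and 0.181.

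**Figure D2:**
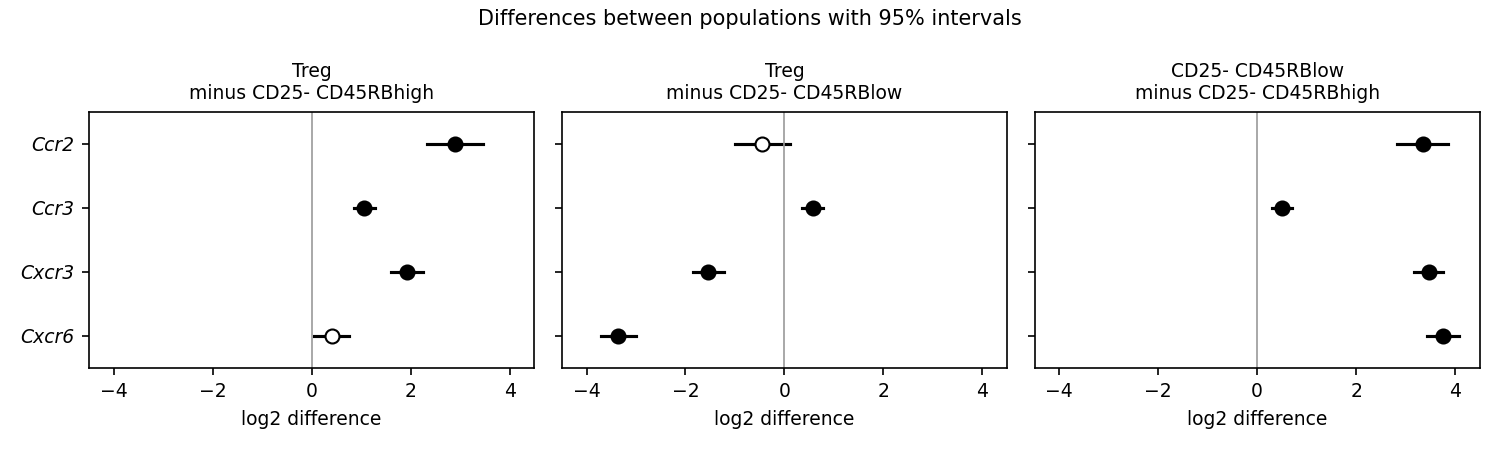
Log2 differences of the 4 receptors in the 3 comparisons, first population minus second, with 95% intervals from the limma fit, filled where the adjusted p was under 0.05. All 4 differences between CD45RBlow and CD45RBhigh cells are filled and positive, from 0.50 for Ccr3 to 3.76 for Cxcr6, while those between Treg and CD45RBlow cells run from -3.36 to 0.57.

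Counted together, 4 of the 4 receptors were higher in CD25- CD45RBlow than in CD45RBhigh cells, where 7.62% of all probe sets were called higher and 12.6% called in either direction. Their groups did not overlap for any of the 4, as for 17.8% of all probe sets. In Treg against CD45RBhigh cells 3 of 4 were higher, without overlap, against 10.3% of all probe sets called higher, 18.9% called in either direction and 25.0% without overlap. Against CD45RBlow cells Treg cells had 1 receptor higher (Ccr3) and 2 lower (Cxcr3 and Cxcr6), all 3 without overlap. There 6.74% of all probe sets were called higher, 5.78% lower and 12.5% in either direction, and 21.3% did not overlap. With the replicate block, which added Ccr2 to those lower in Treg than in CD45RBlow cells and changed no other call of the 4, 26.5% of all probe sets were called in Treg against CD45RBhigh, 19.7% in Treg against CD45RBlow and 21.7% in CD45RBlow against CD45RBhigh cells. The median differences over all probe sets were near 0 in these comparisons, at -0.04, 0.04 and -0.08. The same shares are the background for the counts of other gene lists given further on. The comparisons share arrays and are not independent of each other, and the 4 genes were chosen with earlier results of these data known. Fitted on replicates 1 and 2 alone, or on replicates 3 and 4 alone, no difference of the 4 receptors changed sign.

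The distance between the CD25- populations gives a scale on which to place Treg cells for each receptor, with the CD45RBhigh mean at 0% and the CD45RBlow mean at 100% on the log2 scale. Treg arrays stood at 10.8% ± 1.02 (SD, n = 3) for Cxcr6, close to the CD45RBhigh end. For Cxcr3 they stood at 55.7% ± 5.13 (SD, n = 3), near the middle, with single arrays from 51.8% to 61.5%. For Ccr2 the value was 86.6% ± 6.72 (SD, n = 3), with arrays from 80.4% to 93.7%, close to the CD45RBlow end. For Ccr3 they lay beyond the CD45RBlow mean at 214% ± 40.1 (SD, n = 3), on a scale that is only 0.50 log2 units long for this gene. The arrays of the 4 receptors did not overlap on this scale. The errors cover the Treg arrays only and leave out the spread of the populations that set the scale, and no test was made of it.

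**Figure D3:**
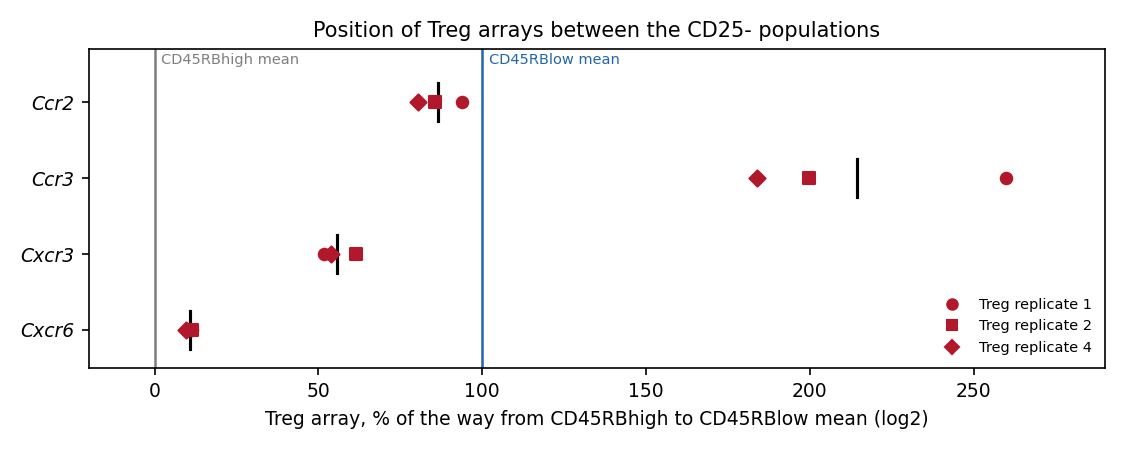
Position of each Treg array between the mean of CD45RBhigh cells (0%) and that of CD45RBlow cells (100%), computed from log2 values, with a bar at the mean of the 3 arrays. The receptors spread from 10.8% for Cxcr6 through 55.7% for Cxcr3 and 86.6% for Ccr2 to 214% for Ccr3.

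For each receptor the genes with the most similar pattern were found by centring each gene on its own mean over the 11 arrays and taking the root mean square difference over those arrays, among 907 other named genes. All genes share the arrays and their populations, so the measure describes likeness only. Genes were not scaled, so it depends on the size of their differences as well as on the order of the populations. For Cxcr6 these were Ifng, the gene of interferon-gamma, at 0.48, Il4, the gene of interleukin-4, at 0.59 and the chemokine gene Xcl1 at 0.60. Each of these 3 was highest in CD45RBlow cells and much lower in both others, as Cxcr6 was. Ifng means were 6.80 in Treg, 9.32 in CD45RBlow and 6.13 in CD45RBhigh cells, and those of Il4 were 3.96, 6.62 and 4.07. For Ccr2 the nearest were its cluster neighbour Ccr9 (0.45), Cxcr3 (0.53) and Il2rb, a chain of the interleukin-2 receptor (0.57). For Cxcr3 they were Ccr2 (0.53), Ccr9 (0.55) and Il17rb, a receptor for interleukin-25 (0.60). The identifiers of Ccr9 and Il17rb carry a suffix that marks probes shared with other transcripts. Among the receptor genes named further on, those of Ccr6, Cx3cr1 and Xcr1 carry it too. For Ccr3 they were the sialidase gene Neu3 (0.13), Fut7, which makes selectin ligands (0.14), and the adhesion molecule gene Icam1 (0.18), which like Ccr3 were highest in Treg and lowest in CD45RBhigh cells. Among the 4 receptors, Ccr2 and Cxcr3 were nearest to each other (0.53), and Ccr3 and Cxcr6 farthest apart (1.75).

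Of 21 other names taken from the receptor family, 15 were measured. In CD45RBlow against CD45RBhigh cells 6 were higher and 2 lower, with a median difference of 0.07, or 7 and 2 with the replicate block. The block added Cx3cr1, the fractalkine receptor gene (0.61, limma adjusted p = 0.0075), which also passed without CD45RBlow replicate 4 (0.77, limma adjusted p = 0.0353). The smallest adjusted p among them belonged to Cxcr5, which leads cells to B cell follicles, at 2.10 (SE 0.20, limma adjusted p = 2.64e-05). Ccr8, a receptor of skin-homing and regulatory cells, differed by 1.08, Ccr10, another receptor of skin homing, by 1.24, and Ccr9, the receptor of gut homing, by 2.68. None of these differences was as large as those of Ccr2, Cxcr3 and Cxcr6. In Treg against CD45RBhigh cells 6 of the 15 were higher and 2 lower (median 0.13), with Ccr8 at 2.59, Ccr6 at 3.31 and Cxcr5 at 2.34, while the lymph node receptor Ccr7 was lower, at -1.01.

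Treg against CD45RBlow cells gave fewer calls among these 15, with 2 higher and 1 lower (median 0.12), or 2 and 3 with the replicate block. Ccr8 (1.51, SE 0.11, limma adjusted p = 4.07e-06) and Ccr6 (1.30, SE 0.26, limma adjusted p = 0.00598) were higher in Treg cells. Ccr10 was lower (-0.66, SE 0.14, limma adjusted p = 0.00964). Without CD45RBlow replicate 2 Ccr7 passed as well (-0.38, limma adjusted p = 0.0353). Cxcr6 had the largest difference of the receptors read in this comparison, and Ccr8 the largest toward Treg cells.

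**Figure D4:**
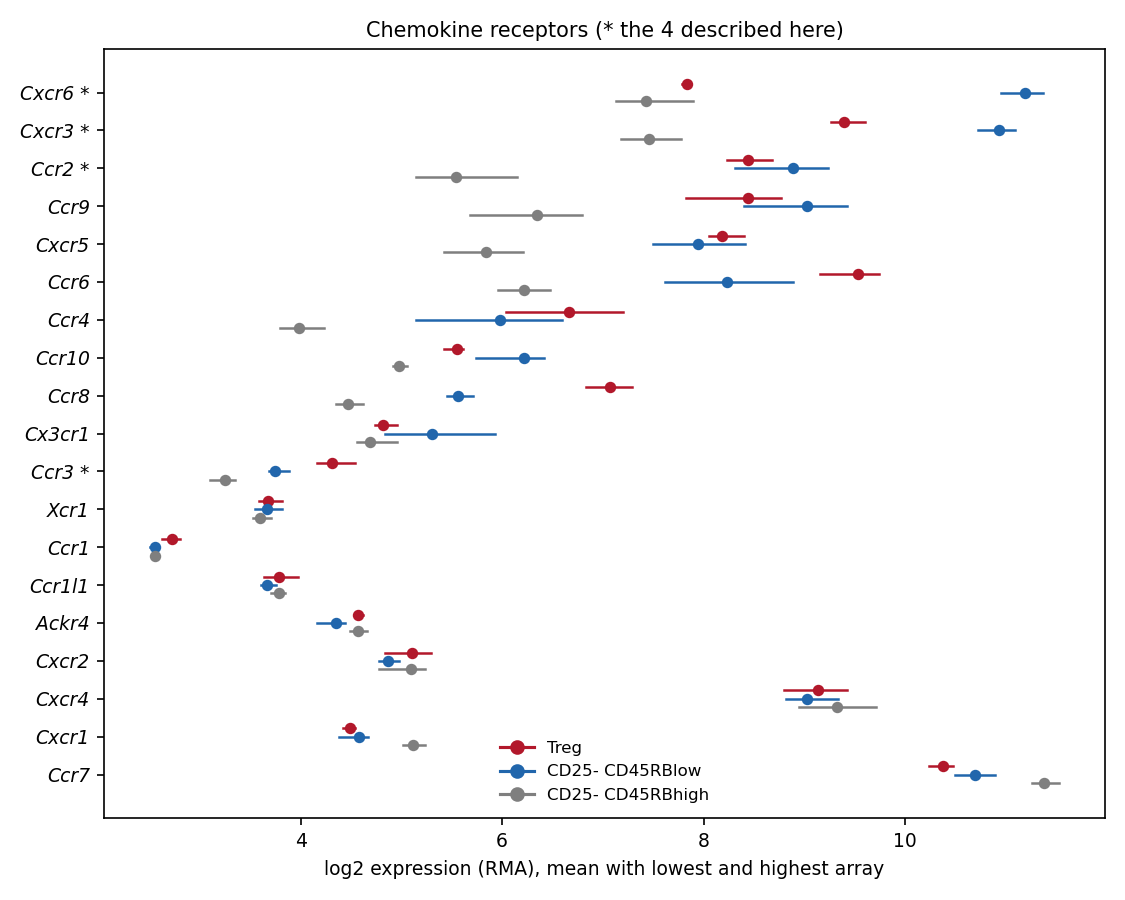
Log2 expression (RMA) of the chemokine receptors described here, ordered by the difference between CD25- CD45RBlow and CD45RBhigh cells, as the mean (point) and the lowest and highest array (line) of each population. Cxcr6, Cxcr3 and Ccr2 head the order, and Ccr7 at the other end is highest in CD45RBhigh cells. Levels of different genes come from different probes and are not compared.

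Within this stretch of chromosome 9, the 4 neighbours of the 3 receptors were uneven. Ccr9 was higher in CD45RBlow than in CD45RBhigh cells, by 2.68 (SE 0.30, limma adjusted p = 9.77e-05). It was also higher in Treg than in CD45RBhigh cells, by 2.10 (SE 0.32, limma adjusted p = 0.000678). Against CD45RBlow cells its difference in Treg cells was -0.58 (limma adjusted p = 0.332) and did not pass. With the replicate block it was -0.80 and passed (limma adjusted p = 0.0014), as it did on replicates 1 and 2 only (-0.65, limma adjusted p = 0.0116). The remaining 3, Xcr1, Ccr1 and Ccr1l1, had means between 2.55 and 3.79 in the 3 populations, at or near the dim end of the chip, and none was called in these comparisons. Without Treg replicate 4, Ccr1 passed in Treg against CD45RBhigh cells (0.21, limma adjusted p = 0.0273) and against CD45RBlow cells (0.22, limma adjusted p = 0.0303).

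Of 14 names of chemokines that these receptors bind, 9 were measured, and 4 of the 9 had means under the first quartile in each population. Cxcl10, a ligand of CXCR3, was higher in Treg than in CD45RBhigh cells, by 1.67 (SE 0.20, limma adjusted p = 8.63e-05), the 1 ligand called there. It was also higher in CD45RBlow than in CD45RBhigh cells, by 1.57 (SE 0.18, limma adjusted p = 0.000144). Ccl5, which binds CCR3 among other receptors, had means of 9.03 in Treg, 11.55 in CD45RBlow and 9.27 in CD45RBhigh cells. It was lower in Treg than in CD45RBlow cells, by -2.52 (SE 0.19, limma adjusted p = 4.07e-06), and higher in CD45RBlow than in CD45RBhigh cells, by 2.27 (SE 0.17, limma adjusted p = 6.99e-06). Treg and CD45RBlow cells thus differed in 1 ligand of 9, and CD45RBlow and CD45RBhigh cells in 3, where 12.5% and 12.6% of all probe sets were called. The third was the eotaxin gene Ccl24, at -0.27 (limma adjusted p = 0.0401), a call that was lost without Treg replicate 2 (-0.27, limma adjusted p = 0.0565), without any 1 of the CD45RBlow arrays and without CD45RBhigh replicate 1, 2 or 3.

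Genes of type 1 helper cells, which CXCR3 marks, were measured for 11 of 15 names. In CD45RBlow against CD45RBhigh cells 6 were higher and 1 lower, with Ifng at 3.19, Xcl1 at 2.50, the interleukin-12 receptor gene Il12rb1 at 2.05 and the interleukin-18 receptor gene Il18rap at 1.35. In Treg against CD45RBlow cells 5 were lower and 1 higher, or 5 and 2 with the replicate block. Ifng was lower by -2.52, Xcl1 by -2.66, Il12rb2 by -1.26 and Il18rap by -1.07. The 1 higher was the interferon-gamma receptor gene Ifngr1, a call lost without most of the arrays, left out one at a time, as without Treg replicate 1 (0.65, limma adjusted p = 0.149). Treg and CD45RBhigh cells differed in 2 of the 11, and with the block in 3, where 18.9% and 26.5% of all probe sets were called. Of the 2, Il12rb1 was higher in Treg cells by 2.12 (SE 0.12, limma adjusted p = 2.73e-07). The other was Ifngr2, lower in Treg cells, a call lost without any 1 of the Treg arrays and without CD45RBhigh replicate 1, 3 or 4. Without CD45RBlow replicate 3 Ifngr1 passed there too (0.55, limma adjusted p = 0.028). Il12rb1 means were 7.96 in Treg, 7.89 in CD45RBlow and 5.83 in CD45RBhigh cells. The list therefore held genes with the pattern of Cxcr6, such as Ifng, and others, such as Il12rb1, with that of Ccr2. Median differences of the list were 0.52, -0.18 and -0.10 in the order CD45RBlow against CD45RBhigh, Treg against CD45RBlow and Treg against CD45RBhigh cells.

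Genes of type 2 helper cells, which can carry CCR3, were measured for 6 of 10 names. In Treg against CD45RBhigh cells 2 were higher, the interleukin-33 receptor gene Il1rl1 by 4.16 and Il10, the gene of an inhibitory cytokine, by 3.61. Both were also higher in Treg than in CD45RBlow cells, by 1.78 and 2.52. Il4 was lower in Treg than in CD45RBlow cells, by -2.65, and the block added 1 gene higher to these 3 calls. In CD45RBlow against CD45RBhigh cells 3 were higher, Il4 by 2.54, Il1rl1 by 2.39 and Il10 by 1.09, and the block added 1 lower. Il1rl1 and Il10 thus ordered the populations as Ccr3 did, while Il4, like Cxcr6, was far higher in CD45RBlow cells than in both others.

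Chemokine receptors can carry sulfated tyrosines at the outer end, and 5 of 6 names for that pathway were measured. The sulfotransferase genes split between Treg and CD45RBlow cells, with Tpst1 higher by 0.40 (SE 0.10, limma adjusted p = 0.0255) and Tpst2 lower by -0.43 (SE 0.12, limma adjusted p = 0.0362). Both differences were small, and each lost its call on leaving out 1 array. Tpst1 did so without Treg replicate 1 (0.35, limma adjusted p = 0.109) or 4 and without CD45RBlow replicate 2 or 3. Tpst2 did so without Treg replicate 2 (-0.37, limma adjusted p = 0.147) or 1 and without any 1 of the CD45RBlow arrays. In Treg against CD45RBhigh cells the sulfate donor transporter gene Slc35b3 was lower, by -0.37 (limma adjusted p = 0.0458), and it too missed the threshold without most of the arrays, left out one at a time, as without Treg replicate 2 (-0.32, limma adjusted p = 0.161). With the replicate block Tpst1 was also called there, higher in Treg cells (0.26, limma adjusted p = 0.0368). None of the 5 was called in CD45RBlow against CD45RBhigh cells by limma (2 at an unadjusted p under 0.05, and 1 with the replicate block).

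Markers of other cells that carry these receptors were read beside them. Of 7 measured markers of monocytes, macrophages and dendritic cells, the classical carriers of CCR2, 3 had means under the first quartile in every population, among them Adgre1, the gene of the macrophage marker F4/80, at 2.67, 2.67 and 2.74. The mean over the list lay between 3.87 and 3.97 on Treg, 3.96 and 4.04 on CD45RBlow and 3.91 and 3.99 on CD45RBhigh arrays. Cd209a, a dendritic cell lectin gene, was the 1 of the 7 called, lower in Treg (-0.24, limma adjusted p = 0.0476) and in CD45RBlow cells (-0.26, limma adjusted p = 0.032) than in CD45RBhigh cells. Ccr2 ran the other way, higher in Treg and in CD45RBlow cells than in CD45RBhigh cells. The Cd209a calls were lost without most of the arrays, left out one at a time. None of the 7 was called in Treg against CD45RBlow cells (0 at an unadjusted p under 0.05). With the block Cx3cr1 was lower there (-0.56, limma adjusted p = 0.0227) and higher in CD45RBlow than in CD45RBhigh cells, the directions of Ccr2 with the block. Of 5 measured markers of eosinophils, basophils and mast cells, Siglecf and Il5ra, both eosinophil genes, had means between 2.45 and 3.29 in the 3 populations. In the same list the stem cell factor receptor gene Kit and the interleukin-3 receptor gene Il3ra were higher in Treg than in CD45RBhigh cells, by 0.70 and 0.72, and Kit in Treg than in CD45RBlow cells, by 0.59. Il3ra did not pass in the latter (0.53, limma adjusted p = 0.0537), but did with the replicate block (0.54, limma adjusted p = 0.00251) and without CD45RBhigh replicate 4 (limma adjusted p = 0.0157) or 1 (limma adjusted p = 0.0319). Prg2, the fifth marker, had means of 4.93 in Treg, 4.87 in CD45RBlow and 4.97 in CD45RBhigh cells and was not called. The list mean was 4.40 to 4.61 on Treg, 4.19 to 4.27 on CD45RBlow and 4.11 to 4.27 on CD45RBhigh arrays. Like Ccr3 it was highest on Treg arrays. Unlike Ccr3 it overlapped between CD45RBlow and CD45RBhigh arrays, where none of the 5 was called. The part of these markers in the Ccr3 result was not tested. Selp, which platelets carry and the 1 measured marker of platelets and erythroid cells, was also higher in Treg than in CD45RBhigh (0.37) and CD45RBlow cells (0.48), the former not without Treg replicate 4 (0.28, limma adjusted p = 0.0572). Of 2 measured B cell genes, Cd72 was higher in Treg than in CD45RBhigh (0.54) and CD45RBlow cells (0.85), the former not without Treg replicate 1 (0.46, limma adjusted p = 0.0815). The other, Cd22, was higher in Treg than in CD45RBhigh (0.29) and lower than in CD45RBlow cells (-0.30). Its former call was lost without Treg replicate 1 (0.27, limma adjusted p = 0.0734). The latter was lost without any 1 of the Treg arrays, as without Treg replicate 2 (-0.27, limma adjusted p = 0.0892), and without CD45RBlow replicate 2 or 3. The part of these cells in the results was not tested either.

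Of 6 measured markers of natural killer, natural killer T and CD8 T cells, some of which carry CXCR6 and CXCR3, 2 were under the first quartile in every population. Against CD45RBhigh cells Treg cells had 1 of the 6 higher and 4 lower, and against CD45RBlow cells 1 higher and 2 lower, or 1 and 3 with the replicate block. Among the 4 lower, the calls of Klra3 and Klra8 were lost without any 1 of the Treg arrays. Without Treg replicate 1 they stood at -0.45 (limma adjusted p = 0.106) for Klra3 and -0.35 (limma adjusted p = 0.125) for Klra8. In CD45RBlow against CD45RBhigh cells 1 was higher and 1 lower, or 1 and 2 with the block. The list mean was 4.76 to 4.82 on Treg, 5.65 to 5.97 on CD45RBlow and 5.33 to 5.84 on CD45RBhigh arrays. Its smallest adjusted p in the comparisons with Treg cells was that of Klrd1, a chain of natural killer receptors, at 3.93 ± 0.47 (SD, n = 3) in Treg, 8.28 ± 0.22 (SD, n = 4) in CD45RBlow and 9.22 ± 0.21 (SD, n = 4) in CD45RBhigh cells. Klrd1 was higher in CD45RBhigh than in CD45RBlow cells, with CD45RBlow minus CD45RBhigh at -0.94 on the log2 scale, where Cxcr6 and Cxcr3 were lower. Il2rb, in the same list, ran otherwise: it was higher in Treg than in CD45RBhigh (3.51) and CD45RBlow cells (0.95, limma adjusted p = 0.00986, and 0.0528 without Treg replicate 1), and higher in CD45RBlow than in CD45RBhigh cells (2.57). Between Treg and CD45RBlow cells Klrd1, Cxcr6 and Cxcr3 ran the same way, and the part of such cells in that difference was not tested.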

How the data were processed

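Every one of the 11 samples has its own array, of a custom Affymetrix chip for glycan genes. The table holds log2 values for each probe set, which the authors computed with RMA before they deposited them, per the submitters' processing notes and the series text. RMA's version and the genome build are not given in the sources used here. No scaling or filter was added. RefSeq identifiers named 962 of 1246 probe sets (908 genes), with 284 unnamed. The brightest probe set stood for a gene. Promoter windows are RefSeq's.

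The 4 genes and all lists were chosen with earlier results of these data known. Limma 3.58.1 (R 4.3.3) fitted 1 mean per population to all 11 arrays and moderated the variances by empirical Bayes (2.87 prior and 8 residual degrees of freedom). Tests were two-sided, adjusted by Benjamini-Hochberg over the 1246 probe sets of each comparison, with a threshold of 0.05 and 95% intervals. The fit was tested on simulated data with independent noise on each array, for Treg against CD45RBhigh cells. That simulation leaves out the correlation between arrays described below, so it cannot show how the fit behaves under it. Named were the 4 receptors, up to 4 called genes per list and comparison by smallest adjusted p, 3 genes of most similar pattern per receptor, and genes that check the sort. Named beyond this rule, after their values were seen, were genes that changed their call with the block or when 1 array was left out, and dim genes and unchanged markers given beside a result.

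Replicate numbers come from the labels, which do not say what they mark. Deviations from the population mean correlated at 0.31 to 0.56 (median 0.46) in each of the 10 pairs of arrays of one number, and at a median of -0.31 (highest 0.58) in the 30 other pairs. Among the latter, pairs of replicates 1 and 2, or of 3 and 4, correlated at 0.20 to 0.58. All pairs across these sets correlated negatively (lowest -0.65). The arrays thus fell into 2 sets that no label names, with 1 Treg array in the set of replicates 3 and 4. The main fit leaves these sets out. The numbers were taken as pairing the arrays, though pairing by number and by set was not told apart. A fit with that block is printed beside the results whose call it changed or whose count it moved by a large factor. Other settings tried were a random block, arrays of only the populations compared, 2 replicate sets, 2 other scalings, a filter on dim probe sets, 2 other moderations, a minimum fold and leaving out each array. Protein sequences of the receptors were not analysed here, and 1 item of the receptor lists is not reported here. Python 3.11.15, pandas 2.3.3 and matplotlib 3.10.9 were used for tables and figures.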

Additional observations from a re-analysis of the deposited data

Results flagged for a closer look

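In groups of 4 arrays, the gap of the highest or lowest array to its nearest neighbour was set against the whole range of the group, for the 42 genes named here, in 84 groups. An array stood apart where this share was above Dixon's 95% critical value, which chance gives in about 1 of 20 groups. This was so in 3 groups, all of CD25- CD45RBlow arrays, and in none of those of Ccr2, Ccr3, Cxcr3 or Cxcr6. Ccr10 read 5.74 on replicate 3, against 6.34 to 6.42 on the other arrays (gap over range 0.885). Klra8, a natural killer receptor gene, read 3.76 on replicate 2, against 4.01 to 4.03 on the others (0.925). Fut7 read 6.44 on replicate 4 and 6.42 on each of the others, which were equal, so the gap was the whole range.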

How the results depend on the processing

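The 12 differences of the 4 receptors were computed under 22 alternatives each, and 258 of 264 values kept their direction and their side of the threshold, and none changed direction. With the replicate block, Ccr2 in Treg against CD45RBlow cells passed at -0.58, and the block changed no other call of the 4. Cxcr6 in Treg against CD45RBhigh cells ranged from 0.31 to 0.56 when arrays were left out, and passed at 0.56 without CD45RBhigh replicate 1. Ccr3 did not pass with replicates 3 and 4 only (0.46 in Treg against CD45RBlow, 0.38 in CD45RBlow against CD45RBhigh cells), nor against a minimum fold of 1.2 (0.57 and 0.50). Over all probe sets, the counts called were 235 in Treg against CD45RBhigh, 156 in Treg against CD45RBlow and 157 in CD45RBlow against CD45RBhigh cells. In this order they were 257, 185 and 190 with replicates 1 and 2 only, where Ccr3 passed (0.60 and 0.61), 88, 49 and 63 with replicates 3 and 4 only, and 107, 73 and 75 with the minimum fold. With the replicate block they were 330, 245 and 271. The minimum fold is a stricter test by construction, and the cause of the other shifts was not tested. No receptor had a further probe set, so that alternative gave no value. Dim signal limits Ccr3, and 3 Treg arrays limit each comparison with Treg cells.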
